A study of Mus musculus with 8 samples.

Results

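A set of 10 genes of insulin, leptin and adiponectin signaling were followed in mouse liver: the insulin receptor gene Insr, the adaptors Irs1 and Irs2, the kinase Akt2, the transcription factor Foxo1, the leptin receptor Lepr, the adiponectin receptors Adipor1 and Adipor2, and the inhibitors Ptpn1 and Socs3. They were taken by mouse gene symbol from the deposited expression table, in which 10 of 38283 genes carry these names. The rule that picks them uses names and no measured value, and the set was drawn up with earlier results of these data known. In these livers, Foxo1 was at 17.99 ± 0.404 FPKM (mean ± SD, n = 2 libraries) in the floxed controls on control diet and at 9.19 ± 0.276 in the liver-specific Rora knockout on the same diet. Socs3 had the opposite order there, at 1.76 ± 0.297 and 3.67 ± 0.608. No member passed limma's test over all genes between the genotypes, and 1, Ptpn1, fell with high-fat diet at the edge of the threshold.

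RNA was sequenced from the livers of male C57BL/6 mice of 2 genotypes. RORα f/f mice carried loxP sites around exons 4 and 5 of Rora, which encodes the nuclear receptor RORα, and RORα LKO mice carried the same floxed alleles together with Cre recombinase under the albumin promoter, which is active in hepatocytes and leaves the other liver cells with the floxed gene. Both genotypes were fed a control diet (CD) or a high-fat diet (HFD, 60% of kcal from fat) for 10 weeks from 8 weeks of age, so that the animals were 18 weeks old at the end. There were 4 groups of 2 libraries, and 1 library stands for a pool of 2 animals, so that differences between single mice within a pool were not seen. The values are FPKM, in which fragment numbers are divided by transcript length and by library size, so that levels can be compared between genes.

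Insulin binds the receptor tyrosine kinase encoded by Insr, which phosphorylates the adaptors IRS1 and IRS2 and, through phosphatidylinositol 3-kinase, activates AKT2. In hepatocytes AKT phosphorylates FOXO1 and keeps it out of the nucleus, which lowers transcription of gluconeogenic genes. Leptin signals through JAK2 and STAT3 from the long form of its receptor, adiponectin acts through ADIPOR1 and ADIPOR2 toward AMPK and PPARα, the phosphatase PTP1B (Ptpn1) removes phosphate from the insulin receptor and from JAK2, and SOCS3 is a feedback inhibitor induced by STAT3. RNA levels, which are all that was measured here, do not report phosphorylation or the amount of receptor at the membrane.

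Promoter windows of Foxo1 and Socs3 are shown because these are the members with the widest separation of genotypes on CD. They were taken from RefSeq promoters on GRCm38.p6, in which 9 of the 10 members, all but Insr, were found with 14 windows. Only bases before the transcript start and outside any GENCODE M21 exon of the gene are printed, 5′ to 3′ on the gene's strand. The Foxo1 window lies at chr3:52268087-52268335 on the plus strand, with capitals at the CCAAT motif, a common core promoter element read here on the reverse strand (ATTGG), which occurs 3 times and starts 162, 55 and 23 bases before the RefSeq start. The Socs3 window lies at chr11:117969452-117969616 on the minus strand, between the annotated first exons of this gene, with capitals at TTCNNNGAA, the palindrome that STAT proteins bind, found 1 time at 154 to 146 bases before the RefSeq start.
Foxo1: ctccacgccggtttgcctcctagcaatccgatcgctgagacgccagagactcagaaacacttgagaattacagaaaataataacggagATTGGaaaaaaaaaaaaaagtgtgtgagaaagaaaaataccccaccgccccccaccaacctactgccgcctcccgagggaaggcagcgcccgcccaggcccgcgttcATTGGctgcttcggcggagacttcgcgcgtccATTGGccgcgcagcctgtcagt
Socs3: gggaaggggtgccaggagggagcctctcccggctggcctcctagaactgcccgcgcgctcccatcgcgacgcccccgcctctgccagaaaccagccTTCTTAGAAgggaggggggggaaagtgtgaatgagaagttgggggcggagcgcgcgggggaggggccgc
On either strand of the 250 bases before the start, CCAAT was found in 33.8% of all 32851 promoter windows and TTCNNNGAA in 7.02%. CCAAT was present in windows of 4 members (Foxo1, Adipor1, Irs2 and Lepr), and TTCNNNGAA in windows of 2 members (Socs3 and Akt2). AGGTCA, a form of the half-site that RORα and other nuclear receptors recognise, was found in 14% of all windows and in 0 of the 14 windows of the members. The study gives the core of the RORα element as (A/G)GGTCA behind an A/T-rich stretch. The form GGGTCA and bases farther than 250 from the start were not searched, so the 0 does not cover every RORα site. The forkhead motif TGTTTAC was found in 3.17% of all windows and among the members in that of Adipor2. The motifs do not share letters in the stretches printed, and a match describes the letters of the window and not a bound site.

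Rora, the floxed gene, was looked at first, and its FPKM was 8.85 and 8.59 in the CD-fed f/f libraries, 7.96 and 8.18 in the CD-fed LKO libraries, 7.56 and 7.86 in the HFD-fed f/f libraries, and 7.30 and 8.02 in the HFD-fed LKO libraries. The genotypes did not overlap on CD and overlapped on HFD, and neither difference passed the test described below (adjusted p = 0.61 on CD and 0.97 on HFD, limma). FPKM covers the whole gene while only exons 4 and 5 are floxed, so this value neither measures the deletion nor checks the labels. The genotype of each library is taken from its label throughout. The labels read WT and KO, and the names f/f and LKO used for them here follow the study's methods. Each library held 10587 to 10706 genes above 1 FPKM, and its top 10 genes made up 29.7% to 43.7% of all FPKM. Albumin (Alb) was listed at 0 in 4 of the 8 libraries, whereas the other 9 of 10 hepatocyte markers were above 1 in all 8, and no fold change is given for it. Read totals were not used, so the depth behind each FPKM is unknown here. The study's methods give free access to food, and whether animals were fasted before the liver was taken is not given in the sources used here.

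The members spanned a wide range of levels in liver. Adipor2 was the most abundant with 158 ± 24.9 FPKM (mean ± SD over all 8 libraries), followed by Adipor1 with 32.8 ± 1.24, Akt2 with 28.2 ± 1.60, Insr with 16.2 ± 1.57 and Foxo1 with 13.1 ± 3.51. The lower part of the order held Ptpn1 with 4.81 ± 0.556 FPKM, Irs2 with 2.79 ± 1.01, Socs3 with 2.38 ± 0.888, Irs1 with 1.49 ± 0.280 and Lepr with 0.651 ± 0.189. Between neighbours in this order, the ranges over libraries overlapped for Insr and Foxo1, for Ptpn1 and Irs2, for Irs2 and Socs3, and for Socs3 and Irs1, and did not overlap for the other 5 pairs. Insr exceeded Foxo1 and Ptpn1 exceeded Irs2 in 8 of 8 libraries all the same, while Irs2 exceeded Socs3 in 6 of 8 and Socs3 exceeded Irs1 in 7 of 8.

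The ratio of Adipor2 to Adipor1 FPKM lay between 4.00 and 5.78 with a median of 4.91, and the ratio of Irs2 to Irs1 between 1.22 and 2.50 with a median of 1.78. Akt2 stood at 1.57 to 1.90 times the FPKM of its paralog Akt1. Insr exceeded the phosphatase gene Ptpn1 by 3.00 to 3.94 times. The related receptor gene Igf1r, which hepatocytes hardly express, was at most 0.15 FPKM in any library, against at least 14.2 for Insr.

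**Figure D1:**
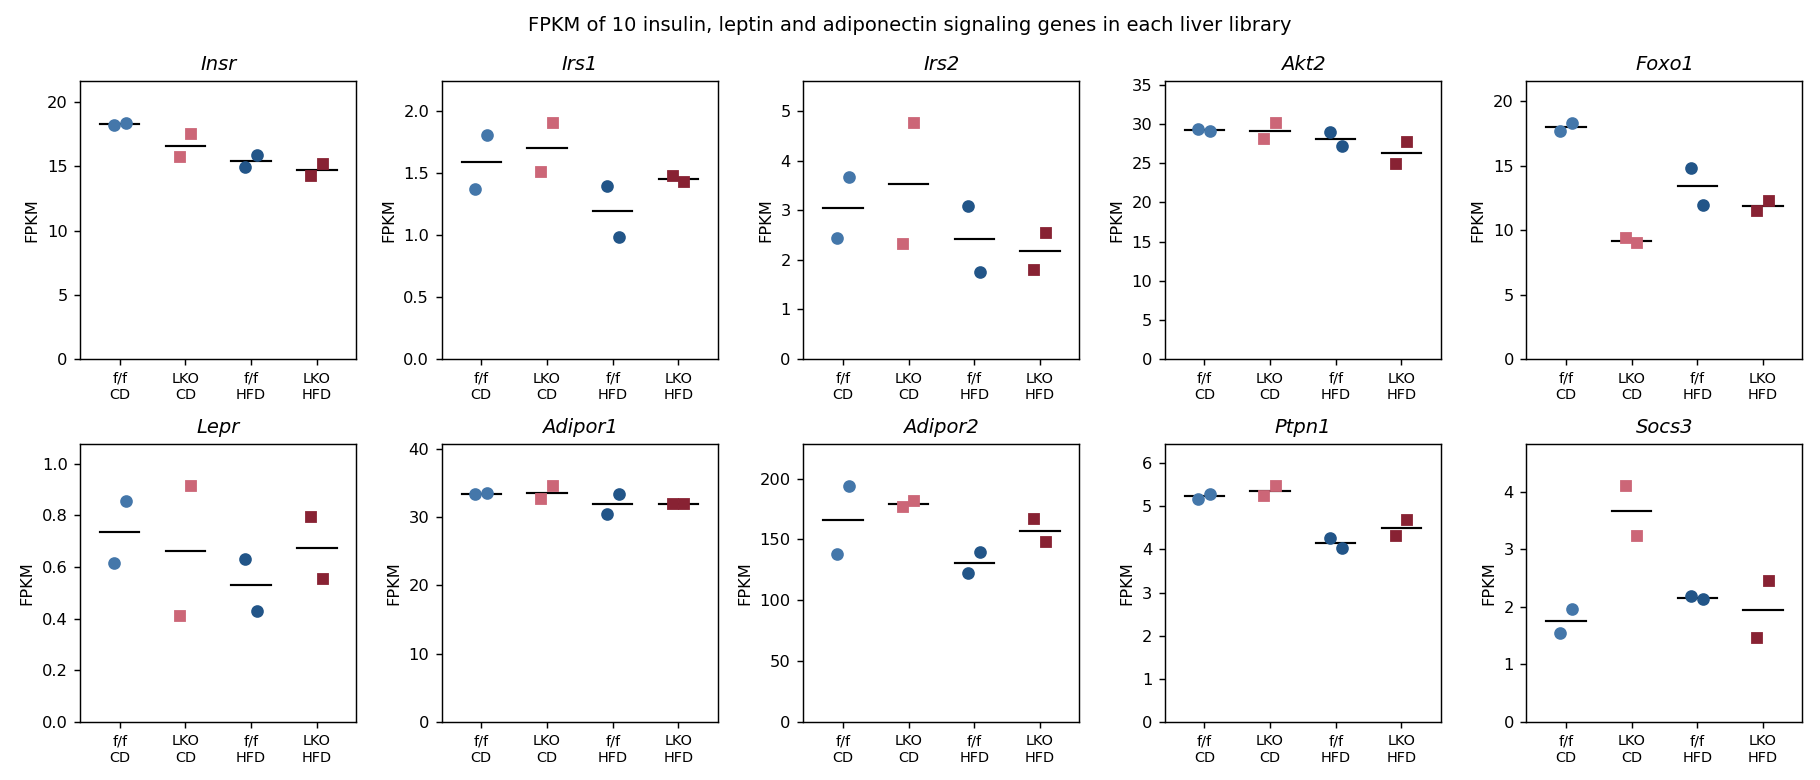
FPKM of the 10 genes in each library (points; circles f/f, squares LKO), with the group mean as a line and n = 2 libraries per group; each panel has its own linear axis from 0. Foxo1 separates the CD-fed genotypes (17.7 and 18.3 against 9.39 and 9.0), Socs3 does so in the other direction (1.55 and 1.97 against 4.10 and 3.24), and Ptpn1 separates the diets.

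To compare groups, the 11634 genes that exceeded 1 FPKM in any library were used. Values were turned into log2(FPKM + 1), a scale on which changes of low genes look smaller than they are, and quantile normalized, and limma was fitted to all 8 libraries with Benjamini-Hochberg adjustment over all genes tested. A call is an adjusted p under 0.05. Of the members 9 were tested, and Lepr, below 1 FPKM in every library, was left out by the filter. With 2 libraries against 2, an exact permutation test of a single gene cannot go below 0.33, so the limma values rest on a spread shared over groups. Libraries are pools of different animals, and the p-values speak to the spread between those pools.

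Whether loss of hepatic RORα went with a change in these genes was asked on each diet. On CD, 0 of 9 members were called in limma against 0.0172% of all genes, 2 of 9 had an unadjusted p under 0.05 against 12.3%, and the libraries of the genotypes did not overlap for 3 of 9 against 43%. On HFD, 0 of 9 were called against 0.043% of all genes, 0 of 9 had an unadjusted p under 0.05 against 9.58%, and 3 of 9 did not overlap against 42.2%. Averaged over the diets, 0 of 9 were called against 0.103%, and 1 of 9, Foxo1, had an unadjusted p under 0.05 against 13.5%. The difference between the diets in the genotype effect was called for 0 of 9 members against 0.0344%, and 2 of 9, Foxo1 and Socs3, had an unadjusted p under 0.05 against 8.35%. The small shares called over all genes show how few genes of any kind passed between genotypes in these 8 libraries.

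Foxo1, the forkhead factor that drives gluconeogenic genes when insulin is low, was lower in the LKO than in the f/f libraries on CD. Its FPKM was 17.7 and 18.3 in the CD-fed f/f libraries and 9.39 and 9.0 in the CD-fed LKO libraries. On HFD it was 14.9 and 11.95 in the f/f libraries and 11.5 and 12.3 in the LKO libraries. The genotypes were far apart on CD, with the CD-fed LKO libraries the lowest of all 8, and overlapped on HFD. On the log2(FPKM + 1) scale the LKO-minus-f/f difference was -0.88 on CD (SE 0.10, 95% interval -1.12 to -0.64), with an unadjusted p of 6.19e-05 and an adjusted p of 0.076 in limma. It was -0.14 on HFD (SE 0.10, interval -0.38 to 0.10, adjusted p = 0.70). The difference between the diets was 0.74 (SE 0.14, interval 0.40 to 1.08), with an unadjusted p of 0.0014 and an adjusted p of 0.45, so it did not pass over all genes. Averaged over the diets the difference was -0.51 (SE 0.071, adjusted p = 0.073). When genes with FPKM above 1 in all 8 libraries were the only ones tested, Foxo1 was called on CD (adjusted p = 0.045, limma) and averaged over the diets. That filter gave 7 calls among 9839 genes on CD, against 2 among 11634 before. Averaged over the diets it gave 50 calls, against 12 before, so that calls rose beyond Foxo1. A permutation procedure was modelled on the study's methods, with fewer permutations, and is not taken to give the study's own calls. It also called Foxo1 on CD, as it did 5.38% of all genes. Foxo1 (ENSMUSG00000044167) lies on chromosome 3 from 52268336 to 52353221 of GRCm38, where Gm20402 on the other strand and Gm38034 overlap it, and reads of overlapping genes cannot be told apart in libraries that do not record strand.

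Socs3, the feedback inhibitor of cytokine and leptin receptors that can also bind the insulin receptor, was ordered the other way on CD. The gene (ENSMUSG00000053113) lies on the minus strand of chromosome 11 from 117966079 to 117970047. Its FPKM was 1.55 and 1.97 in the CD-fed f/f libraries and 4.10 and 3.24 in the CD-fed LKO libraries. On HFD it was 2.18 and 2.14 in the f/f libraries and 1.46 and 2.45 in the LKO libraries. The CD-fed LKO libraries were the highest of all 8, and on HFD the LKO libraries lay on both sides of the f/f libraries. The log2 difference was 0.72 on CD (SE 0.19, interval 0.27 to 1.17, unadjusted p = 0.0069, adjusted p = 0.25, limma) and -0.12 on HFD (SE 0.19, interval -0.57 to 0.33, adjusted p = 0.88). The difference between the diets was -0.84 (SE 0.27, interval -1.48 to -0.21, adjusted p = 0.56). The permutation procedure called Socs3 on CD, and on HFD it called 0 of 9 members against 4.58% of all genes.

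Insr FPKM was 18.2 and 18.3 in the CD-fed f/f libraries, 15.7 and 17.5 in the CD-fed LKO libraries, 14.9 and 15.9 in the HFD-fed f/f libraries, and 14.2 and 15.2 in the HFD-fed LKO libraries. Insr (ENSMUSG00000005534) lies on chromosome 8 from 3122061 to 3279617. The genotypes were separated on CD by less than 1 FPKM and overlapped on HFD. The log2 difference between genotypes was -0.12 on CD (interval -0.30 to 0.06) and -0.04 on HFD (interval -0.22 to 0.14), neither of which passed in limma (adjusted p = 0.56 and 0.90).

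The adaptors were low and variable. Irs1 FPKM was 1.37 and 1.81 in the CD-fed f/f, 1.51 and 1.90 in the CD-fed LKO, 1.40 and 0.988 in the HFD-fed f/f, and 1.48 and 1.43 in the HFD-fed LKO libraries. Irs2, the adaptor whose gene FOXO1 and fasting induce in liver, was at 2.43 and 3.66 in the CD-fed f/f, 2.32 and 4.75 in the CD-fed LKO, 3.08 and 1.76 in the HFD-fed f/f, and 1.80 and 2.54 in the HFD-fed LKO libraries. On CD the LKO libraries spanned the whole f/f range for Irs2. Its genotype differences of 0.11 on CD and -0.09 on HFD carried the widest intervals of the 9 members tested, -0.64 to 0.86 and -0.84 to 0.66. Those of Irs1 were 0.03 (interval -0.33 to 0.40) and 0.16 (interval -0.20 to 0.52). Irs1 lies on chromosome 1 from 82233101 to 82291416, and Irs2 on chromosome 8 from 10984681 to 11008458. Irs1 shares its locus with Gm9747 and Irs2 with 9530052E02Rik on the other strand.

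Akt2 and Adipor1 varied least. Akt2 FPKM was 29.3 and 29.1 in the CD-fed f/f, 28.1 and 30.1 in the CD-fed LKO, 29.0 and 27.2 in the HFD-fed f/f, and 24.9 and 27.7 in the HFD-fed LKO libraries. Its genotype differences were 0.03 on CD (interval -0.14 to 0.19) and -0.08 on HFD (interval -0.24 to 0.09). Adipor1, which couples adiponectin to AMPK, was at 33.4 and 33.5 FPKM in the CD-fed f/f, 32.7 and 34.6 in the CD-fed LKO, 30.6 and 33.4 in the HFD-fed f/f, and 32.0 and 32.0 in the HFD-fed LKO libraries. Its genotype differences were 0.02 on CD (interval -0.15 to 0.18) and 0.04 on HFD (interval -0.12 to 0.20). Akt2 lies on chromosome 7 from 27591552 to 27640826, and Adipor1 on chromosome 1 from 134415378 to 134433351. The genotypes overlapped on both diets for Adipor1, and these intervals are the narrowest of the 9 members.

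Adipor2, the main adiponectin receptor of hepatocytes and tied to PPARα, was at 138 and 194 FPKM in the CD-fed f/f libraries and 176 and 181 in the CD-fed LKO libraries. On HFD it was at 122 and 139 in the f/f libraries and 166 and 148 in the LKO libraries. Adipor2 (ENSMUSG00000030168) lies on chromosome 6 from 119353150 to 119417704. The genotypes overlapped on CD, where the f/f libraries differed widely from each other, and did not overlap on HFD. The log2 difference was 0.12 on CD (interval -0.29 to 0.53) and 0.32 on HFD (interval -0.09 to 0.73, unadjusted p = 0.11, adjusted p = 0.62, limma).

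Ptpn1 FPKM was 5.18 and 5.29 in the CD-fed f/f, 5.24 and 5.47 in the CD-fed LKO, 4.28 and 4.02 in the HFD-fed f/f, and 4.30 and 4.68 in the HFD-fed LKO libraries. Its genotype differences were 0.03 on CD (interval -0.15 to 0.21) and 0.10 on HFD (interval -0.08 to 0.28). Ptpn1 (ENSMUSG00000027540) lies on chromosome 2 from 167932057 to 167979385, and Lepr (ENSMUSG00000057722) on chromosome 4 from 101717404 to 101815352. Lepr was at 0.616 and 0.857 FPKM in the CD-fed f/f, 0.409 and 0.913 in the CD-fed LKO, 0.632 and 0.428 in the HFD-fed f/f, and 0.794 and 0.555 in the HFD-fed LKO libraries. Its groups overlapped in every comparison, and in a fit without the filter its genotype differences were -0.08 on CD (interval -0.50 to 0.34) and 0.13 on HFD (interval -0.29 to 0.55). FPKM is summed over the 7 annotated Lepr transcripts, so the long signaling form and the short forms are not separated, and no exonic base is shared with Leprot.

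**Figure D2:**
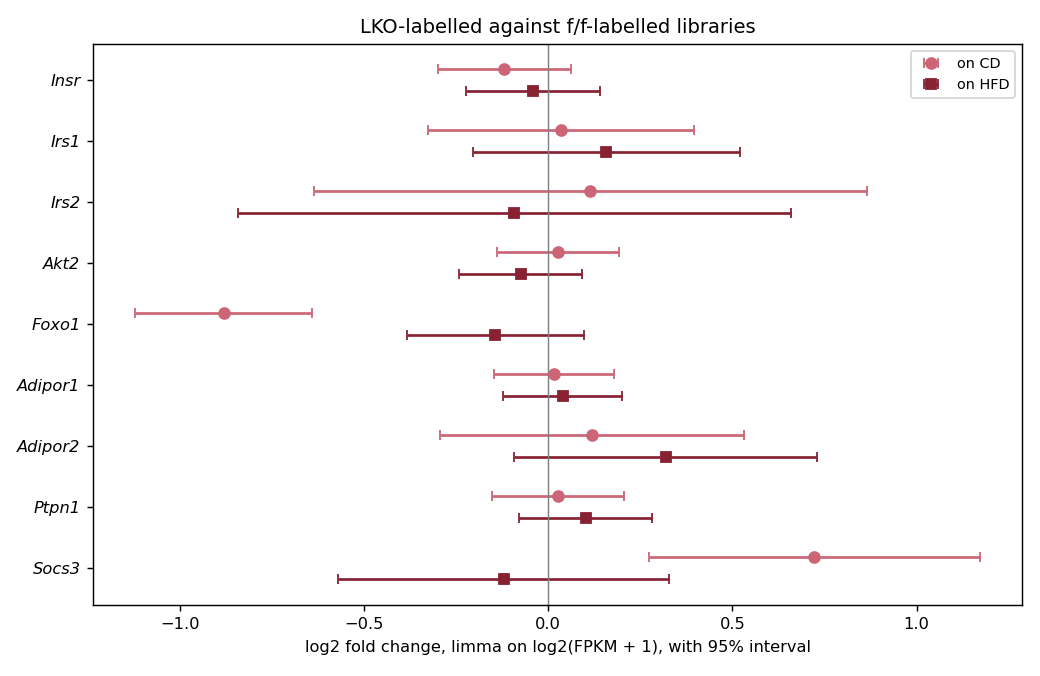
Log2 fold change, LKO-labelled minus f/f-labelled libraries on the log2(FPKM + 1) scale, for the 9 members tested (points) with the 95% interval from limma (bars); circles are CD, squares HFD. On CD the intervals of Foxo1 (-1.12 to -0.64) and Socs3 (0.27 to 1.17) leave out 0, and on HFD every interval includes 0.

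Whether the diet went with a change was asked under each genotype label. In the f/f libraries 0 of 9 members were called against 1.33% of all genes, with 3 of 9 at an unadjusted p under 0.05 against 19.2% (Foxo1, Insr and Ptpn1, all lower on HFD, as were 9.22% of all genes) and 4 of 9 without overlap against 50.3%. In the LKO libraries 0 of 9 were called against 3.02%, with 3 of 9 at an unadjusted p under 0.05 against 21.3% (Foxo1 higher, Ptpn1 and Socs3 lower) and 6 of 9 without overlap against 52.9%. Averaged over the genotypes 1 of 9 was called against 9.89% of all genes, with 2 of 9 at an unadjusted p under 0.05 against 27.9%. The members' shares thus lay near those of the whole table.

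Ptpn1 was the member called, and it fell on HFD. The 4 HFD-fed libraries, at 4.02 to 4.68 FPKM, all lay below the 4 CD-fed libraries, at 5.18 to 5.47, which was so for 16.7% of all genes in one direction or the other. The log2 difference averaged over genotypes was -0.22 (SE 0.054, interval -0.35 to -0.09, adjusted p = 0.0496, limma), with -0.26 in the f/f and -0.18 in the LKO libraries. The value sits at the threshold, and the call was lost when any 1 of the 8 libraries was left out (log2 difference -0.24 to -0.20). The summed FPKM of 9 stellate cell markers did not overlap between the diets either, at 41.2 to 64.6 in the CD-fed and 71.8 to 97.3 in the HFD-fed libraries, mostly through Dcn. Of these 9 markers 6 had a positive and 3 a negative diet difference averaged over genotypes, and 2 were called higher. Their median was 0.04 against 0.01 over all genes tested. All 9 endothelial markers had a positive diet difference (median 0.22 against 0.01 over all genes tested), of which 1, Lyve1, was called, and their summed FPKM was 67.8 to 87.0 in the CD-fed and 82.6 to 105 in the HFD-fed libraries. The part of either list in the result was not tested. In bulk liver, fewer cells of a type and less RNA per cell cannot be told apart.

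The HFD-minus-CD difference of Insr on the log2 scale was -0.21 in the f/f libraries (interval -0.39 to -0.03, adjusted p = 0.21) and -0.13 in the LKO libraries (interval -0.32 to 0.05, adjusted p = 0.36). Its average over genotypes was -0.17 (SE 0.054, unadjusted p = 0.016, adjusted p = 0.093, limma). The highest HFD-fed library, at 15.9 FPKM, was just above the lowest CD-fed library, at 15.7.

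Foxo1 had opposite signs of the diet difference under the 2 genotype labels. It was -0.37 in the f/f libraries (SE 0.10, interval -0.61 to -0.13, adjusted p = 0.12) and 0.36 in the LKO libraries (SE 0.10, interval 0.12 to 0.61, adjusted p = 0.11), so that the average was near 0. As the values above show, Foxo1 was highest in CD-fed f/f, lowest in CD-fed LKO and in between in both HFD-fed groups. Socs3 had the signs exchanged, with 0.19 in the f/f libraries (SE 0.19, interval -0.26 to 0.64, adjusted p = 0.63) and -0.66 in the LKO libraries (SE 0.19, interval -1.11 to -0.21, adjusted p = 0.12). Its interval in the f/f libraries includes 0, unlike that of Foxo1. These diet differences use the same libraries as the genotype differences and are not further evidence of them.

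The diet differences of the other members averaged over genotypes were -0.06 for Akt2 (interval -0.18 to 0.05), -0.03 for Adipor1 (interval -0.15 to 0.08), -0.19 for Adipor2 (interval -0.48 to 0.11), -0.34 for Irs2 (interval -0.88 to 0.19) and -0.18 for Irs1 (interval -0.44 to 0.07). Lepr, without the filter, was at -0.09 (interval -0.38 to 0.21). None passed the test, and all 6 were negative.

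**Figure D3:**
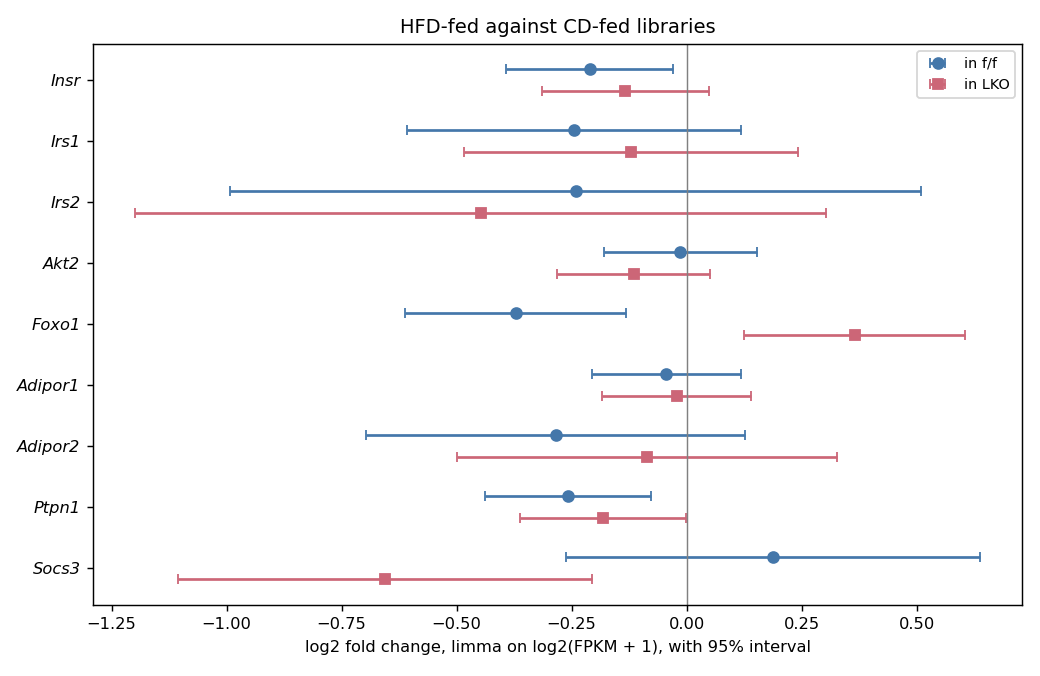
Log2 fold change, HFD minus CD on the log2(FPKM + 1) scale, for the 9 members tested (points) with the 95% interval from limma (bars); circles are f/f libraries, squares LKO libraries. Foxo1 lies at -0.37 in f/f and 0.36 in LKO, Socs3 at 0.19 and -0.66, and Ptpn1 below 0 under both labels.

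The ligands of these receptors were listed at or near 0. A listed 0 is not read as absence, since Alb is listed at 0 in 4 of the 8 libraries. Ins1 and Ins2, the insulin genes, were listed at 0 in all 8 libraries, Lep (leptin) was listed at 0 in 7, and Adipoq (adiponectin) was listed at 0 in 5 and reached at most 0.38 FPKM. The summed FPKM of 7 adipocyte markers was 13.4 to 17.2 in the f/f and 18.3 to 21.6 in the LKO libraries, carried by Fabp4, Lipe and Cfd, with Adipoq, Lep, Plin1 and Retn at 0.38 or less. Of 6 pancreas markers 5 were listed at 0 in all 8 libraries, and the other, the elastase gene Cela1, was at 9.85 to 14.01 FPKM in the f/f and 4.62 to 6.18 in the LKO libraries and was called lower averaged over diets (log2 difference -0.995, adjusted p = 0.024). Whether either list had a part in the genotype values above was not tested. The summed FPKM of 10 Kupffer cell markers was 120 to 153 in the f/f and 113 to 119 in the LKO libraries on CD, and 89.7 to 112 in the f/f and 115 to 154 in the LKO libraries on HFD. It thus had opposite orders of the genotypes on the 2 diets, and its part in the values above was not tested either.

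Other genes of the 3 pathways were counted from hand-made lists that leave out the members. Of 29 genes of the insulin cascade 25 were tested, and between genotypes 0 were called on either diet. Over all genes 0.0172% were called on CD and 0.043% on HFD. With shares this small, a count of 0 between genotypes says little about this list or those that follow. Foxo3, a paralog of Foxo1, was lower under the LKO label on both diets, with 10.7 and 10.7 FPKM in the f/f against 8.52 and 7.56 in the LKO libraries on CD, and 10.1 and 9.45 against 7.47 and 8.18 on HFD. The 4 LKO libraries all lay below the 4 f/f libraries (average log2 difference -0.31, SE 0.056, unadjusted p = 0.0010, adjusted p = 0.11). Such a separation, in one direction or the other, was seen for 4.84% of all genes. Pik3r2 (0.26, adjusted p = 0.25) and Mlst8 (0.22, adjusted p = 0.31) were separated in the other direction. Of the 25 genes, 3 were higher and 2 lower at an unadjusted p under 0.05 averaged over diets. Foxo4 was at 7.04 to 8.83 FPKM over all 8. On the normalized scale its HFD-fed libraries all lay above its CD-fed libraries (average log2 difference 0.17, unadjusted p = 0.016, adjusted p = 0.093, limma). A separation of the diets, in one direction or the other, was seen for 16.7% of all genes. With diet, averaged over genotypes, 1 of the 25 was called, beside 9.89% of all genes. It was Pik3r1, the regulatory subunit of phosphatidylinositol 3-kinase, which rose by 0.63 on the log2 scale (SE 0.056, adjusted p = 0.0036). Pik3r1 FPKM was 16.1 and 15.9 in the CD-fed f/f, 12.9 and 12.9 in the CD-fed LKO, 20.5 and 22.6 in the HFD-fed f/f, and 24.0 and 22.2 in the HFD-fed LKO libraries, so that the diets did not overlap and the increase was 0.44 in f/f (adjusted p = 0.057) and 0.82 in LKO (adjusted p = 0.015). The list's median diet difference was -0.04, against 0.01 over all genes tested.

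Of 21 further inhibitors of insulin signaling 18 were tested, with 0 called between genotypes on either diet. With diet, averaged over genotypes, 2 rose and 1 fell, beside 9.89% of all genes called. Trib3, a pseudokinase that binds AKT, rose by 0.77 (adjusted p = 0.029) from 1.84 to 2.32 FPKM on CD to 3.38 to 6.42 on HFD. The receptor phosphatase gene Ptprf rose by 0.23 (adjusted p = 0.029), and Socs7 fell by 0.30 (adjusted p = 0.040). Ptprf was at 18.6 and 18.6 FPKM in the CD-fed f/f libraries and between 23.0 and 24.8 in the other 6. Socs1, a relative of Socs3, did not exceed 0.30 FPKM. Socs2, which growth hormone induces, spread from 1.85 to 12.9 FPKM, with f/f libraries at 1.85 and 5.62 on CD and at 4.50 and 12.9 on HFD. Its LKO-minus-f/f difference on HFD was -1.51 (interval -2.70 to -0.32, unadjusted p = 0.020, adjusted p = 0.40, limma). The genotypes did not overlap there, as was so for 42.2% of all genes.

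Of 13 genes of the leptin receptor and JAK-STAT list all were tested, with 0 called between genotypes. Il6ra, which encodes a subunit of the interleukin-6 receptor, was like Foxo1 lowest in the CD-fed LKO libraries. Unlike those of Foxo1, its f/f libraries overlapped between the diets. Its FPKM was 18.6 and 18.7 in the CD-fed f/f, 8.18 and 9.39 in the CD-fed LKO, 19.3 and 15.7 in the HFD-fed f/f, and 15.0 and 17.8 in the HFD-fed LKO libraries. The genotype difference of Il6ra was -1.001 on CD (SE 0.12, unadjusted p = 7.92e-05, adjusted p = 0.084, limma). With HFD in the LKO libraries Il6ra rose by 0.87 (adjusted p = 0.022, limma), where 3.02% of all genes were called. The call was lost without the filter and did not hold in every fit with a library left out. In those fits the increase was 0.77 to 0.97. Stat3 was at 26.7 to 33.9 FPKM on CD and at 22.0 to 25.8 on HFD (average difference -0.30, adjusted p = 0.066). Jak2 was at 2.96 to 4.02 over all libraries. On the normalized scale its diets did not overlap, with HFD higher (average difference 0.17, unadjusted p = 0.049, adjusted p = 0.18, limma), and 16.7% of all genes were separated by diet.

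Of 20 genes of the adiponectin receptor family and AMPK 14 were tested, with 0 called in any of the 7 comparisons. Paqr9 and Paqr7, members of the family that Adipor1 and Adipor2 belong to, were higher in all 4 LKO than in all 4 f/f libraries. Paqr9 was at 72.6 to 89.2 FPKM in f/f and 98.5 to 148 in LKO (average log2 difference 0.63, SE 0.10, unadjusted p = 6.22e-04, adjusted p = 0.099). Paqr7, known as a membrane progestin receptor, was at 22.8 to 31.9 in f/f and 33.0 to 56.4 in LKO (average difference 0.55, SE 0.11, adjusted p = 0.13). Across all genes tested, 4.84% had no overlap of the 4 libraries of each genotype in one direction or the other. The AMPK catalytic subunit genes Prkaa1 and Prkaa2 were at 2.56 to 3.53 and 9.77 to 12.3 FPKM.

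**Figure D4:**
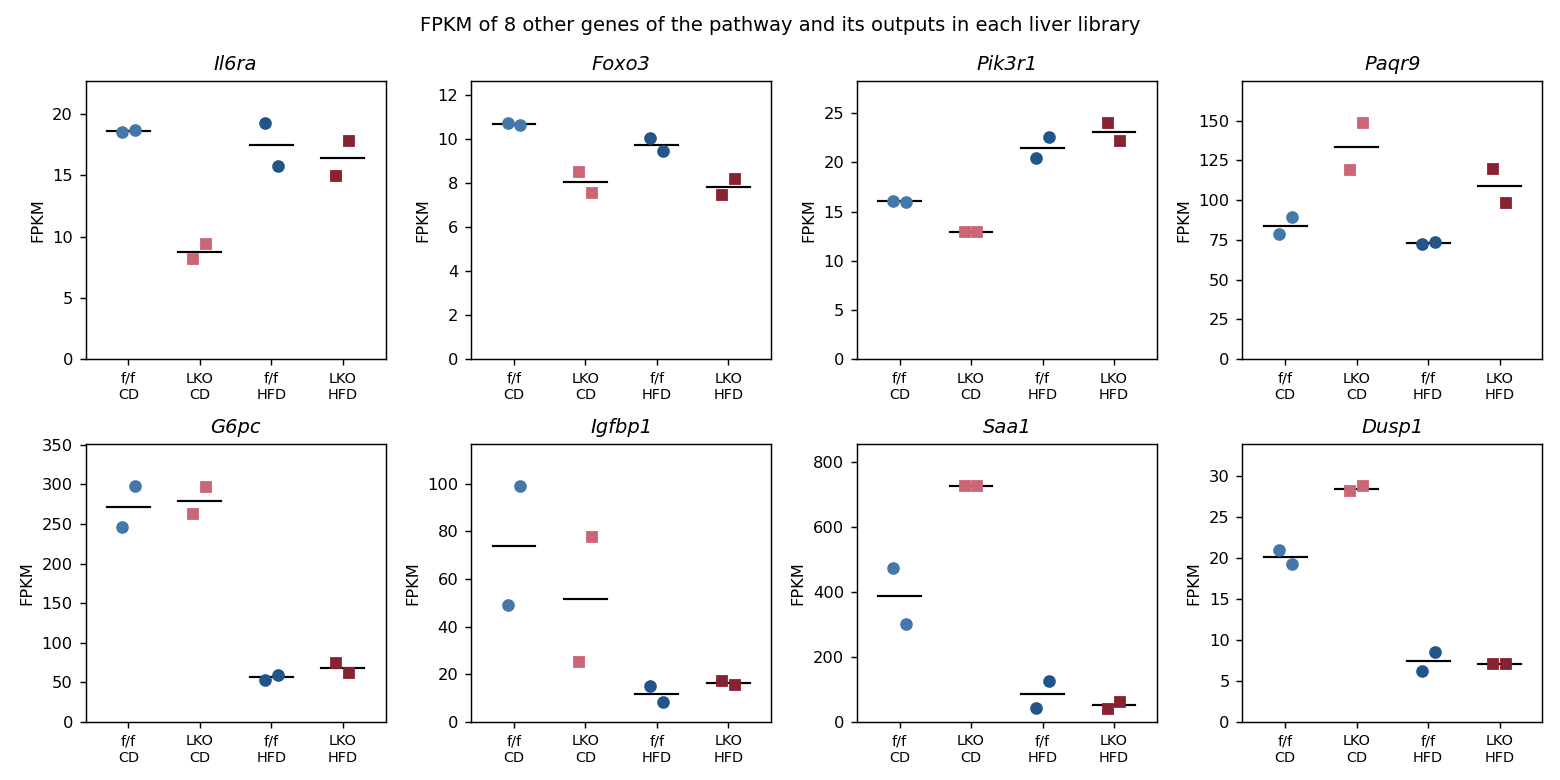
FPKM of 8 genes outside the 10 in each library (points; circles f/f, squares LKO), with the group mean as a line, n = 2 libraries per group, each panel on its own linear axis from 0. Il6ra is lowest in CD-fed LKO (8.18 and 9.39), Foxo3 is lower and Paqr9 higher under the LKO label on both diets, Pik3r1 is higher on HFD, and G6pc, Igfbp1, Saa1 and Dusp1 are lower on HFD.

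Genes downstream of the members were read last. Of 12 genes that FOXO1 induces or insulin represses 11 were tested. On CD, where Foxo1 itself was at its lowest in the LKO libraries, 0 of the 11 were called, beside 0.0172% of all genes. With a share this small, the count does not tell whether these genes followed Foxo1. G6pc, the glucose-6-phosphatase gene, was at 246 and 298 FPKM in f/f and 262 and 297 in LKO. Pck1, the gene of the gluconeogenic enzyme PEPCK, was at 1173 and 1178 in f/f and 746 and 1058 in LKO. Ppargc1a, a coactivator of FOXO1, was at 3.09 and 3.91 in f/f and 1.96 and 2.17 in LKO (log2 difference -0.55, SE 0.11, adjusted p = 0.20). With HFD, averaged over genotypes, 4 of the 11 fell and 1 was called higher, beside 9.89% of all genes called. G6pc fell by 2.04 (adjusted p = 5.31e-04), Igfbp1, a secreted binding protein of insulin-like growth factors, fell by 1.93 (adjusted p = 0.030), Txnip fell by 0.87 (adjusted p = 0.045) and Pck1 fell by 0.67 (adjusted p = 0.048). The call of G6pc held under all 15 alternatives, whereas that of Igfbp1 held under 8 (adjusted p up to 0.10) and those of Txnip and Pck1 under 5 each (up to 0.14 and 0.15). The gene called higher, Selenop, was at 0.47 with quantile normalization but at -0.04 without normalization and -0.01 with each library centred on its median, and is not read as a change.

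Of 9 genes that insulin induces 8 were tested, with 0 called between genotypes. With HFD, averaged over genotypes, 5 of these 8 fell, beside 9.89% of all genes called. Of the lipogenic genes, Elovl6 fell by 1.71 (adjusted p = 0.0095), Fasn by 1.35 (adjusted p = 0.0063), Acly by 1.25 (adjusted p = 0.0016) and Acaca by 0.89 (adjusted p = 0.014), and Thrsp fell by 1.197 (adjusted p = 0.0497). The call of Thrsp held under 4 of the 15 alternatives (adjusted p up to 0.15). Srebf1, which encodes the lipogenic factor SREBP1, was at 39.3 and 32.0 FPKM in f/f and 59.6 and 54.7 in LKO on CD, and at 40.4 and 49.0 in f/f and 34.3 and 30.9 in LKO on HFD, with a difference between the diets of -1.09 (SE 0.19, unadjusted p = 7.47e-04, adjusted p = 0.36).

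Of 15 acute phase genes that STAT3 induces all were tested. No acute phase gene was called on CD. There 12 of the 15 had a positive LKO-minus-f/f difference and 3 a negative one, and 4 of 15 had an unadjusted p under 0.05, all higher, against 6.15% of all genes higher: Lcn2 at 1.44 (adjusted p = 0.35), Orm2 at 1.35 (adjusted p = 0.29), Lbp at 0.56 (adjusted p = 0.076) and Hp at 0.375 (adjusted p = 0.27). Lbp, the lipopolysaccharide binding protein gene, was called averaged over diets, at 50.1 to 67.0 FPKM in f/f and 73.3 to 77.0 in LKO (log2 difference 0.41, SE 0.046, adjusted p = 0.049), a call that held under 3 of the 15 alternatives (adjusted p up to 0.14). With HFD, averaged over genotypes, 7 of the 15 were called lower and 1 higher, beside 9.89% of all genes called. Saa2 fell by 3.19 (adjusted p = 0.012), Saa1 fell by 3.02 (adjusted p = 0.0071), and Orm2 fell by 1.73 (adjusted p = 0.019). Of 12 immediate early genes 8 were tested, with 0 called between genotypes and 2 fallen on HFD, Dusp1 by 1.58 (adjusted p = 8.05e-04) and Btg2 by 0.65 (adjusted p = 0.033).

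**Figure D5:**
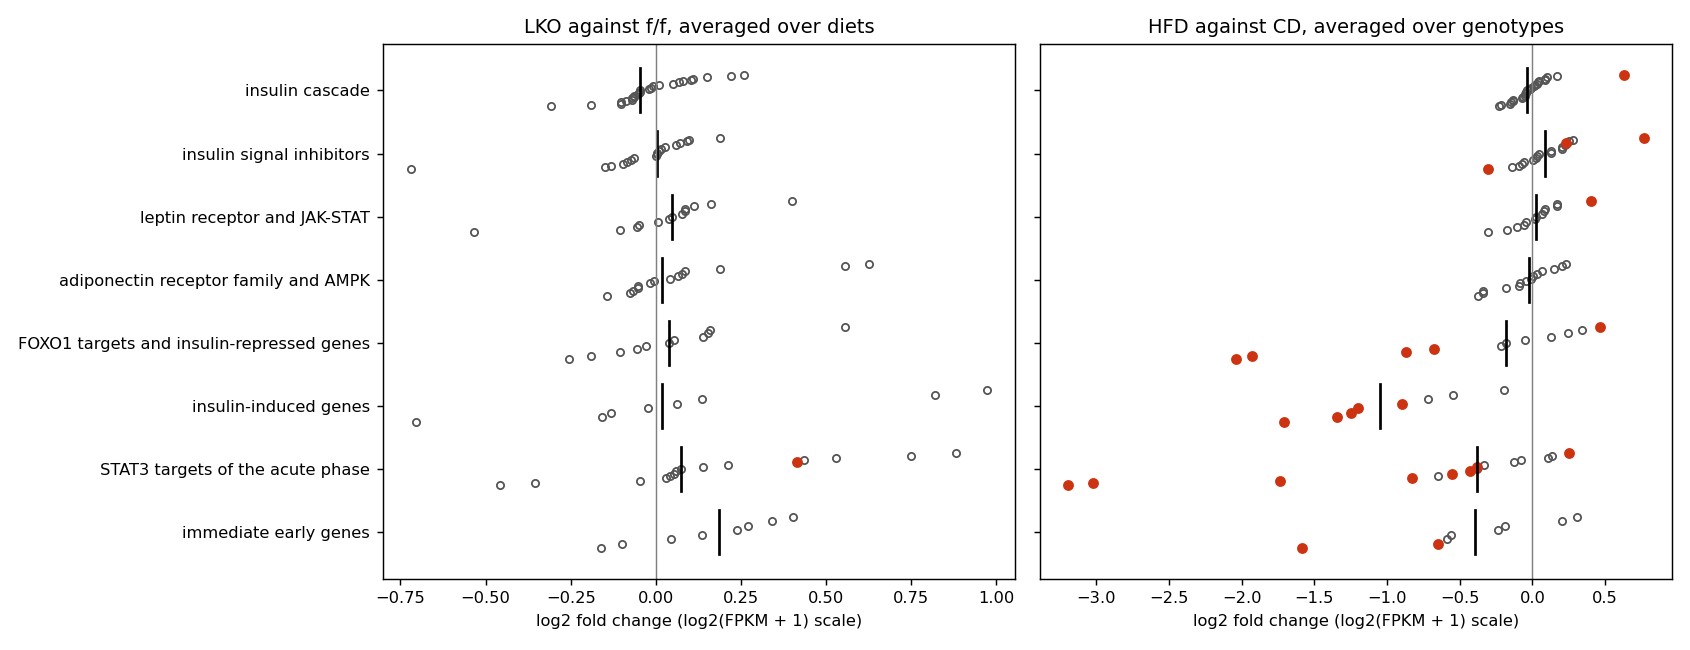
Log2 fold change of every tested gene of 8 lists (points, log2(FPKM + 1) scale), LKO minus f/f averaged over diets on the left and HFD minus CD averaged over genotypes on the right; filled red points are called (adjusted p under 0.05, limma) and the bar is the list's median. On the left 1 gene, Lbp, is called. On the right the lowest called points of the lists of downstream genes are -3.19 (Saa2, acute phase), -2.04 (G6pc, FOXO1 list) and -1.71 (Elovl6, insulin-induced). The called point at 0.47 in the FOXO1 list is Selenop, whose sign depends on the scaling.

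The genes whose pattern over the 8 libraries was most like a member were sought for the 3 members with the widest range, among 9838 genes with FPKM above 1 in all libraries. For Foxo1 they were Eif3a (Pearson's r = 0.969), Ell2 (0.966) and Susd6 (0.965). For Socs3 they were Nek8 (0.948), Spryd4 (0.947) and Slc30a1 (0.943). For Irs2 they were Tmem120a (0.969), Adat1 (0.923) and Nomo1 (0.916). These are descriptions over 8 libraries that share groups and diets, chosen as the highest of many, and carry no test.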

How the data were processed

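The table deposited by the authors holds FPKM on a linear scale, with no log. Per the paper's methods and the labels, the authors removed adapters and trimmed reads with cutadapt 1.0, aligned them to GRCm38 with TopHat2 2.0.7 and estimated FPKM with Cufflinks. The Cufflinks version and annotation are not given in the sources used here. Poly(A) RNA was prepared with a kit that does not mark strand.

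From these values, 38283 genes were matched by Ensembl identifier to GENCODE M21 (36341 with a symbol). Genes that exceeded 1 FPKM in any library were used, and log2(FPKM + 1) values were quantile normalized. They were fitted with limma 3.58.1 in R 4.3.3 as 4 groups with a mean-variance trend, and p-values were adjusted by Benjamini-Hochberg within each of 7 comparisons. The fit had 4 residual degrees of freedom, to which moderation added 2.8. It was tested on simulated data. FPKM given as mean ± SD are the deposited values. Motifs and figures were made with Python 3.11.15 and matplotlib 3.10.9.

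All 10 members are named. In each list the genes named are at most the 4 with the largest change at an unadjusted p under 0.05 in a comparison. Some list genes were named after their values were seen: G6pc on CD, Akt1, Igf1r, Foxo4, Jak2, Prkaa1, Prkaa2, Socs1 and Acaca. Of these, Foxo4, Jak2 and Acaca also met that rule in a diet comparison. The members and lists were chosen with earlier results of these data known. Alternatives were no normalization, centring on the median, a pseudocount of 0.1, other filters, no trend, fewer libraries in the fit, a replicate block, each library left out, and a permutation procedure modelled on the study's (100 of 210 regroupings, seed 11, absolute log2 fold change of at least 0.439). One gene of the lists is not reported here.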

Additional observations from a re-analysis of the deposited data

Results flagged for a closer look

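The libraries of Foxo1 moved in opposite directions with diet under the 2 genotype labels: both HFD-fed f/f libraries lay below both CD-fed f/f libraries, and both HFD-fed LKO libraries lay above both CD-fed LKO libraries. The difference of the log2 fold changes was 0.74, with an unadjusted p of 0.0014 and an adjusted p of 0.45 in limma, and over the alternatives the adjusted p ranged from 0.14 to 0.77. Socs3 was marked in the same way with the directions exchanged, and its difference was -0.84, with an unadjusted p of 0.017 and an adjusted p of 0.56 (0.48 to 0.85 over the alternatives). Neither difference passed over all genes. The libraries of the diets did not overlap, in one direction or the other, for 50.3% of all genes in f/f and 52.9% in LKO. How many genes did so in opposite directions was not counted. Over all genes tested, 8.35% had an unadjusted p under 0.05 for the difference of the log2 fold changes.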

How the results depend on the processing

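With 2 pooled libraries per group, small differences of low genes (Irs1, Irs2, Lepr, Socs3) were not detectable, and FPKM carries no depth from which to set a limit. Between genotypes on HFD, for the difference between the diets, and for the diet under each label, 0 members were called under every alternative run. On CD the count of members called went from 0 to 1 with FPKM above 1 in all 8 libraries, where fewer genes were tested, and to 2 with the permutation procedure modelled on the study's (Foxo1 lower, Socs3 higher), and leaving out a library gave 0 each time. Averaged over diets the genotype count went from 0 to 1 (Foxo1) with FPKM above 1 in all 8 libraries, and leaving out each library gave 0 to 1, with the 1 (Foxo1) found without HFD-fed f/f replicate 2. Averaged over genotypes the diet count of 1 (Ptpn1, adjusted p = 0.0496) remained at 1 without normalization and was 0 with a pseudocount of 0.1, no filter, no mean-variance trend, centring on the median and the filter of FPKM above 1 in all 8 libraries, and 0 to 0 with each library left out, the adjusted p ranging from 0.042 to 0.14. The cause was not tested.

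With the replicate number as a replicate block, the diet count was also 0, no other count of members called changed, and 2 in place of 3 members had an unadjusted p under 0.05 for diet in the LKO libraries. The numbers do not pair the libraries: deviations from the group means correlated between libraries of 1 number with Pearson's r of 0.145 on CD and 0.0878 on HFD, and 0.0211 and 0.0236 without genes listed at 0.

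Among 1069 member values under the alternatives, 49 had another sign than the main value, none of them called. No sign changed for Foxo1 or Socs3 on CD. Of 44 results called in the pathway lists, which leave out the cell type markers, 1 changed sign with the scaling, that of Selenop. The hepatocyte markers also depended on the scaling for diet averaged over genotypes. With quantile normalization 4 of 10 were called higher and 0 lower (median 0.08), beside 9.89% of all genes called. Without normalization 1 was called higher and 2 lower (median -0.12). For diet averaged over genotypes, the calls of G6pc, Elovl6, Fasn, Acly, Pik3r1, Saa1 and Dusp1 held under all 15 alternatives, and those of Igfbp1, Txnip, Pck1, Thrsp, Trib3, Socs7, Saa2, Orm2 and Btg2 were lost under at least 1.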
